A study of Glycine max with 12 samples.

Results

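The dependence of the manganese (Mn) response on leaf age was examined in soybean (Glycine max). The quantity analysed was the change between 100 and 5 µM Mn in young leaves minus the same change in old leaves, on the log2 scale. A positive difference means that a gene moved further up, or less far down, in young leaves. All 12 libraries of the series entered, and 28267 of 39811 listed genes were tested. These were the genes with FPKM (fragments per kilobase of gene, scaled to the fragments of the library) of at least 1 in at least 3 libraries.

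At the fifth leaf stage the plants received nutrient solution holding high (100 µM) or normal (5 µM) Mn as MnSO4, renewed every 3 days, in complete randomized blocks. The 4 groups of 3 libraries were young leaves at 100 µM (labelled D4Y-100), young leaves at 5 µM (D4Y-5), old leaves at 100 µM (D2Y-100) and old leaves at 5 µM (D2Y-5). The sources used here do not give the cultivar, the time spent at each Mn level or the number of plants in a library, so p-values measure the spread between these libraries, which may be partly technical. The extraction text speaks of nodules while every sample is labelled as leaf. This could not be checked against marker genes, because neither the deposited table nor the reference pairs the gene IDs with names.

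Mn is part of the water-splitting cluster of photosystem II and a cofactor of several enzymes, and in excess it is toxic to leaves. It is poorly redistributed through the phloem, so leaves that have transpired for longer commonly hold more of it. Tissue age is therefore a usual variable in studies of Mn toxicity, and a difference between responses is the comparison that asks whether age matters. It cannot be read from lists of genes called in each leaf age alone, since a gene may pass a threshold in one age and narrowly miss it in the other. In bulk leaf RNA, fewer cells of a type and less RNA per cell cannot be told apart.

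A difference between the Mn responses of young and old leaves was called for 1320 genes, 4.67% of those tested (limma, adjusted p under 0.05). The response was more positive in young leaves for 1061 genes (3.75%) and more negative for 259 (0.916%). The difference reached 1 on the log2 scale for 855 of the 1061 and for 150 of the 259, together 3.56% of genes tested, and it reached 2 for 326 and 14. The median difference was 1.53 over the 1061 genes and -1.06 over the 259, against 0.15 over all genes tested. That overall shift was -0.03 after median-of-ratios rescaling, which called 955 genes more positive and 597 more negative. The share of calls that were more positive was thus 80.4% as deposited and 61.5% after rescaling, and it was 53.6% after quantile normalization (1091 and 946 genes).

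Single libraries moved the count. It was 866, 660 and 194 without replicate 1, 2 or 3 of young leaves at 100 µM, and 300 and 210 without replicate 1 or 3 of young leaves at 5 µM. It was 823, 290 and 291 without replicate 1, 2 or 3 of old leaves at 100 µM, and 2516 and 3232 without replicate 1 or 2 of old leaves at 5 µM. Leaving out replicate 2 of young leaves at 5 µM gave 1158, and leaving out replicate 3 of old leaves at 5 µM gave 1380. A core of 164 genes, 138 more positive and 26 more negative, was called in the same direction whichever library was left out. The bar chart of calls under each processing choice shows both directions.

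**Figure D1:**
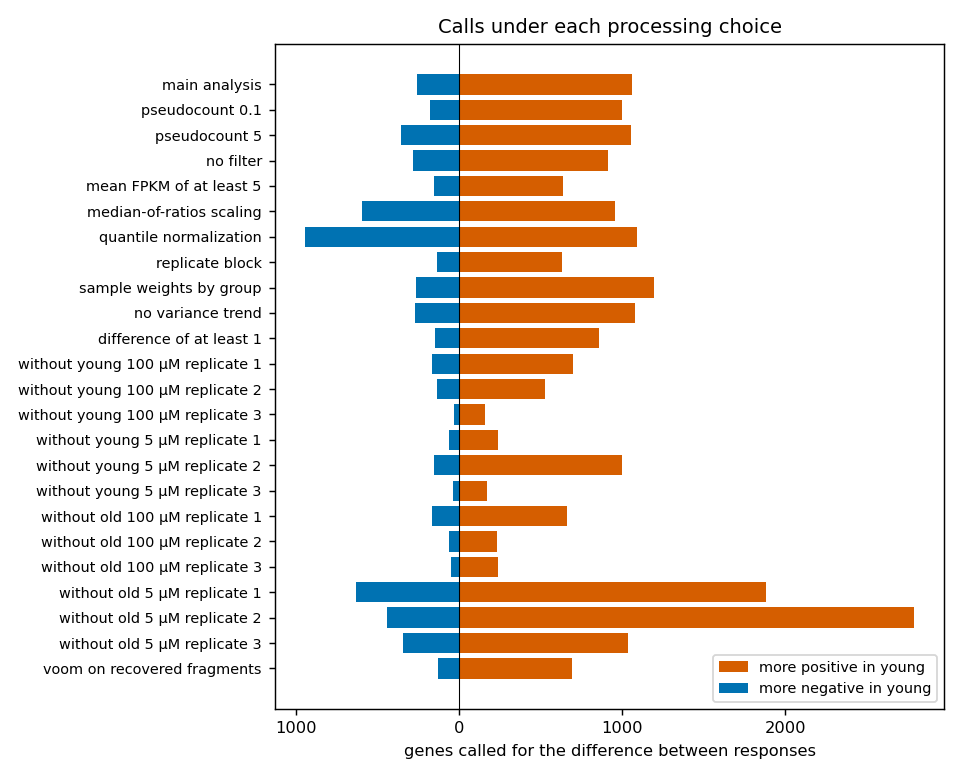
Number of genes called for the difference between Mn responses (x axis) under each processing choice (rows); orange bars to the right are genes whose response was more positive in young leaves and blue bars to the left those in which it was more negative. The main analysis called 1061 and 259 genes, and the totals ran from 194 without replicate 3 of young leaves at 100 µM to 3232 without replicate 2 of old leaves at 5 µM.

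Each called gene was assigned a response type by its calls for Mn within each leaf age. These types rest on the same 12 libraries as the difference and describe it without testing it again. Among all genes tested, 29.6% were called higher and 5.58% lower at 100 µM in young leaves, and 10.8% higher and 5.31% lower in old leaves. These shares rest on FPKM as deposited and depend on scaling. The median young-leaf change over all genes tested was 0.27 as deposited, -0.01 after median-of-ratios rescaling and -0.03 after quantile normalization. In old leaves it was 0.09, 0.01 and 0.02. Genes raised at 100 µM in young leaves with no call in old ones numbered 847, or 64.2% of the 1320. Genes lowered in old leaves with no call in young ones numbered 125 (9.47%), and 70 (5.30%) were higher in young and lower in old leaves. On the negative side, 145 (11%) were raised in old leaves with no call in young ones, 75 (5.68%) were lowered in young leaves with no call in old ones, and 15 (1.14%) were lower in young and higher in old leaves. The remaining 43 moved the same way in both ages (24 higher and 9 lower) or were called in neither (10).

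The most frequent type kept its rank in all 23 alternative analyses, but its share did not hold still. These alternatives reuse the same libraries, and this type was also the most frequent of the 6 among all genes tested (24.0%). It was 44.1% after median-of-ratios rescaling and 40.3% after quantile normalization, where genes lowered in young leaves with no call in old ones took 18.1% and 23.2%. With single libraries left out, the share lay between 47.0% (old leaves at 5 µM, replicate 1) and 71.8% (old leaves at 5 µM, replicate 2). With single libraries left out, the type of 847 genes ranged from 110 (young leaves at 100 µM, replicate 3) to 2319 (old leaves at 5 µM, replicate 2). The type of 145 genes ranged from 14 (young leaves at 100 µM, replicate 3) to 392 (old leaves at 5 µM, replicate 1).

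**Figure D2:**
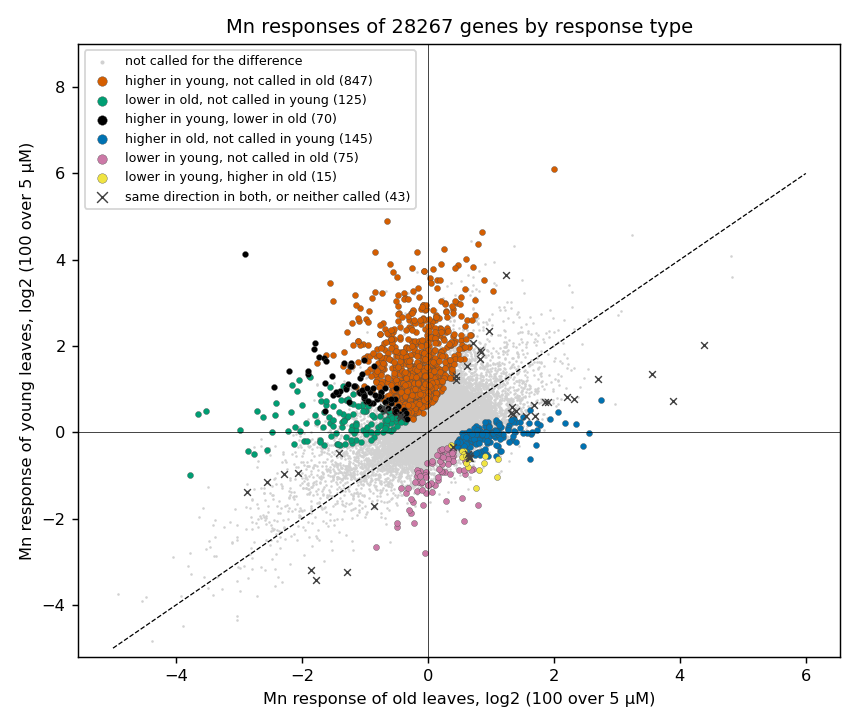
Mn response of young leaves (y axis) against that of old leaves (x axis), each as log2 of 100 over 5 µM, for 28267 genes; coloured points are the 1320 genes called for the difference, by response type, and the dashed line marks equal responses. The 847 genes raised in young leaves with no call in old ones form the cloud above the line near an old-leaf change of 0, and the 70 and 15 genes called in opposite directions lie in the upper left and lower right.

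A call in a single leaf age seldom came with a call for the difference. Of the 6789 genes raised in young leaves with no call in old ones (24.0% of genes tested), 847 were called for the difference, or 12.5%. The share was 16.7% of the 747 genes called lower in the old-leaf test alone (2.64% of genes tested), 9.58% of the 1514 genes called higher in the old-leaf test alone (5.36%) and 8.54% of the 878 genes called lower in the young-leaf test alone (3.11%). All 85 genes called in opposite directions, 70 higher in young and lower in old leaves (0.248% of genes tested) and 15 the reverse (0.0531%), were also called for the difference. Opposite changes add up in the difference, so this outcome was largely built in and is no observed rate. Among genes called the same way in both ages, 24 of 1520 that rose (5.38% of genes tested) and 9 of 685 that fell (2.42%) differed in size. Of the 16049 genes called in neither age (56.8%), 10 were called for the difference. Most genes called in one leaf age alone were therefore not shown to respond differently in the other.

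The 847 genes of the largest type rose in young leaves by a median of 1.33 on the log2 scale (quartiles 0.94 and 1.94). Their median change in old leaves was -0.19 (quartiles -0.40 and 0.01), below 0 for 618 genes and above 0 for 222. Median FPKM was 9.60 in young leaves at 100 µM, 2.57 in young leaves at 5 µM, 5.00 in old leaves at 100 µM and 6.42 in old leaves at 5 µM. Young leaves at 5 µM were thus the low group. In 113 of the 847 genes (13.3%, against 5.66% of all genes tested) FPKM was below 1 in all 6 old-leaf libraries, so that there was little room for a fall there. These genes passed the filter only through young-leaf libraries, so part of that contrast is built into the selection.

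In this type the 3 old-leaf libraries at 5 µM did not sit together. With each gene centred on its mean over the 12 libraries, the median position was 0.53, 0.60 and 0.86 in young leaves at 100 µM and -0.69, -0.41 and -0.76 in young leaves at 5 µM (replicates 1, 2 and 3). It was -0.07, -0.15 and -0.11 in old leaves at 100 µM and -0.06, -0.14 and 0.53 in old leaves at 5 µM. Replicate 3 of old leaves at 5 µM therefore stood at the level of young leaves at 100 µM, and the other old-leaf libraries stood between the young-leaf groups. The libraries of this group also varied more. The median SD of the 1320 genes was 0.195 in young leaves at 100 µM, 0.197 in young leaves at 5 µM, 0.168 in old leaves at 100 µM and 0.348 in old leaves at 5 µM.

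The same library was high for most of the 1061 genes whose response was more positive in young leaves. Replicate 3 was the highest old-leaf library at 5 µM for 80.3% of them, against 60.1% of all genes tested. Within the other groups, replicate 3 of young leaves at 100 µM was highest for 67.0% (32.0% of all genes) and replicate 2 of young leaves at 5 µM for 73.6% (45.0%). The part of these library differences in the result was not tested beyond leaving each library out. Without replicate 3 of old leaves at 5 µM, 1035 genes were called more positive, with a median old-leaf change of -0.07 in place of -0.28 and a median young-leaf change of 1.17 in place of 1.18.

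**Figure D3:**
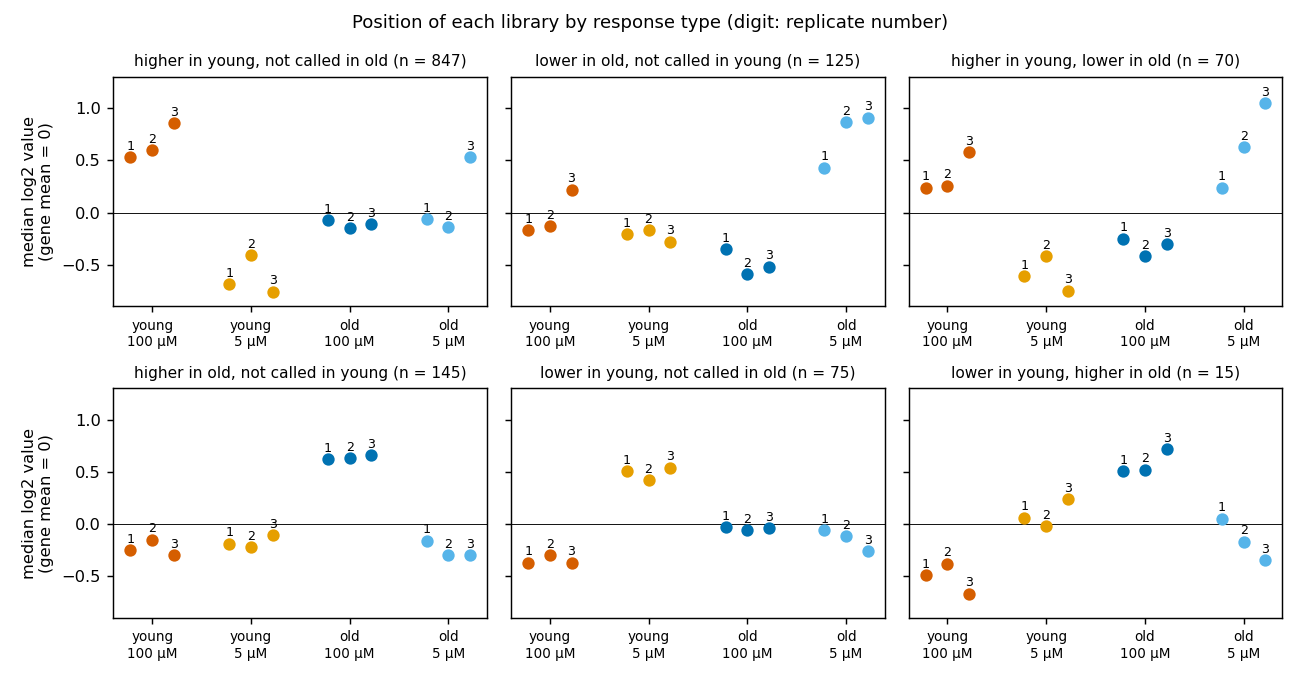
Median log2 value of the genes of each of 6 response types in each library (y axis, each gene centred on its mean over 12 libraries), with the 4 groups along the x axis and the replicate number above each point. In the type of 847 genes, replicate 3 of old leaves at 5 µM lies at 0.53 and the other 2 old-leaf libraries at 5 µM lie at -0.06 and -0.14.

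Glyma.07G243500.Wm82.a2.v1 had the largest difference of the 847 genes. Its FPKM was 135, 333 and 423 in young leaves at 100 µM and 3.00, 46.8 and 2.75 in young leaves at 5 µM. It was 82.5, 233 and 134 in old leaves at 100 µM and 161, 85.6 and 733 in old leaves at 5 µM. The young-leaf groups did not overlap, while the old-leaf groups did, and young leaves at 100 µM lay within the range of the old-leaf libraries. The difference was 5.56 (SE 1.39, limma adjusted p = 0.047). This call was narrow: 13 of 23 alternatives lost it, with adjusted p between 0.051 and 0.12, among them the analysis without replicate 3 of old leaves at 5 µM (difference 4.68, adjusted p = 0.07). Leaving out any 1 library at 100 µM of either leaf age, or replicate 1 or 3 of young leaves at 5 µM, also ended it.

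The 70 genes called in opposite directions, higher in young and lower in old leaves, had a median change of 0.92 in young leaves and -1.02 in old leaves. Median FPKM was 10.9 and 4.35 in young leaves at 100 and 5 µM, and 5.53 and 13.7 in old leaves at 100 and 5 µM. The order of the leaf ages at 100 µM was thus the reverse of that at 5 µM. At 5 µM their centred position in the 3 old-leaf libraries ran from 0.24 to 1.05, all above the old-leaf libraries at 100 µM, which ran from -0.42 to -0.25. With single libraries left out, this type ranged from 19 genes (young leaves at 5 µM, replicate 3) to 201 (old leaves at 5 µM, replicate 1), and it held 75 without replicate 3 of old leaves at 5 µM.

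Glyma.02G083700.Wm82.a2.v1, a short gene of 359 bases by the length behind its FPKM, belonged to these 70 and had the most positive difference of all genes named. Its FPKM was 20.6, 24.2 and 42.8 in young leaves at 100 µM and 0.153, 1.32 and 0.661 in young leaves at 5 µM, where it rests on 1 to 10 fragments per library. In old leaves it was 5.96, 11.7 and 10.9 at 100 µM and 95.3, 25 and 174 at 5 µM. Neither leaf age had overlapping Mn groups. The young-leaf change was 4.13 (SE 0.57) and the old-leaf change -2.90 (SE 0.57), a difference of 7.03 (SE 0.81, limma adjusted p = 0.0065). It was called in all 23 alternatives, with values from 5.04 to 8.48.

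The 125 genes lowered in old leaves with no call in young ones had a median change of -1.24 in old leaves (quartiles -1.69 and -0.85) and of 0.26 in young leaves. That young-leaf value is close to the median of 0.27 over all genes tested, a median that was -0.01 after median-of-ratios rescaling. Median FPKM was 8.31 and 7.5 in young leaves at 100 and 5 µM, and 4.58 and 14.4 in old leaves at 100 and 5 µM. Old leaves at 5 µM were the high group, with centred positions of 0.43, 0.87 and 0.91, and no other library was above 0.22. With single libraries left out, the type ranged from 27 genes (old leaves at 100 µM, replicate 3) to 413 (old leaves at 5 µM, replicate 1), and it held 96 without replicate 3 of old leaves at 5 µM.

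Among genes of this type averaging 5 FPKM or more in some group, the gene with the largest difference lies on chromosome 13. The same FPKM rule holds for every example below. Its FPKM was 4.22, 7.98 and 11.5 in young leaves at 100 µM and 8.15, 5.32 and 3.2 in young leaves at 5 µM, which overlap. In old leaves it was 1.97, 0.607 and 1.21 at 100 µM and 20.7, 41.7 and 21.4 at 5 µM, which do not. The difference was 4.07 (SE 0.55, limma adjusted p = 0.01). Young leaves lay between the old-leaf groups at both Mn levels.

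**Figure D4:**
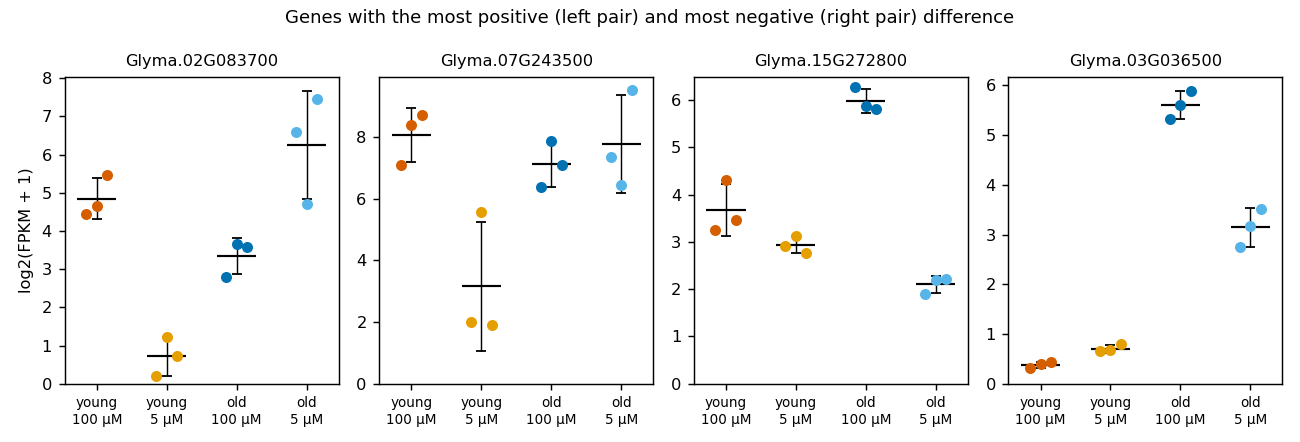
log2(FPKM + 1) of the 2 genes with the most positive and the 2 with the most negative difference, with 1 point per library, a line at the group mean and bars of 1 SD (n = 3); groups run along the x axis. Glyma.02G083700 was high in young leaves at 100 µM and old leaves at 5 µM, and Glyma.03G036500 was near 0 in all young-leaf libraries.

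On the negative side, the 145 genes raised in old leaves with no call in young ones rose in old leaves by a median of 0.94 (quartiles 0.71 and 1.17). Their median change in young leaves was -0.05. Median FPKM was 5.83 and 5.75 in young leaves at 100 and 5 µM, and 12.1 and 4.78 in old leaves at 100 and 5 µM. By these medians old leaves at 100 µM stood apart: their centred positions were 0.62, 0.63 and 0.66, and those of the other 9 libraries ran from -0.30 to -0.11. A rise in old leaves is how the type was defined. Medians over genes can hide leaf age gaps of single genes, so the other groups need not be level in each gene. FPKM was below 1 in all 6 young-leaf libraries for 29 of the 145 genes (20%, against 1.77% of all genes tested). Such genes passed the filter only through old-leaf libraries, so part of that contrast is built into the selection.

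Glyma.03G036500.Wm82.a2.v1 was one of these 29. It had an FPKM of 0.241, 0.310 and 0.351 in young leaves at 100 µM and 0.568, 0.594 and 0.735 in young leaves at 5 µM, on 11 to 36 fragments per library. In old leaves it had 39, 47.4 and 58.2 at 100 µM and 5.70, 8.01 and 10.5 at 5 µM. The difference was -2.78 (SE 0.27, limma adjusted p = 0.0052). It was made up of a rise of 2.46 in old leaves and a change of -0.33 in young leaves that did not pass the test (SE 0.19, limma adjusted p = 0.18). The young-leaf groups did not overlap, with mean FPKM of 0.301 at 100 µM and 0.632 at 5 µM. At such low FPKM the log2(FPKM + 1) scale understates a change.

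The 75 genes lowered in young leaves with no call in old ones had a median change of -0.95 in young leaves (quartiles -1.32 and -0.66), and their median change in old leaves was 0.15. Median FPKM was 4.70 and 11.6 in young leaves at 100 and 5 µM, and 7 and 5.95 in old leaves at 100 and 5 µM. Young leaves at 5 µM were the high group, with centred positions of 0.42 to 0.54. In 22 of the 75 (29.3%) FPKM was below 1 in all 6 old-leaf libraries, with the same limit from the filter. With single libraries left out, this type ranged from 13 genes (young leaves at 100 µM, replicate 3) to 144 (old leaves at 5 µM, replicate 2). Under the 2 rescalings it held 281 genes (median-of-ratios) and 473 genes (quantile normalization).

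The gene of this type with the largest difference, on chromosome 16, was one of these 22. Its FPKM was 0.105, 0.0495 and 0.198 in young leaves at 100 µM and 9.62, 7.4 and 4.20 in young leaves at 5 µM. No fragment was found in any old-leaf library at 100 µM or in 2 of 3 at 5 µM, where a count of 0 allows up to 3 fragments per library, or an FPKM of 0.153 to 0.174. The difference was -2.75 (SE 0.29, limma adjusted p = 0.0052). By voom on the recovered fragments it was -4.86 and did not pass (adjusted p = 0.068). A fall in old leaves could not have been detected at this depth.

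The 15 genes lower in young and higher in old leaves had a median change of -0.61 in young leaves and 0.63 in old leaves. Median FPKM was 15.1 and 22.6 in young leaves at 100 and 5 µM, and 23.0 and 15.2 in old leaves at 100 and 5 µM. Their number was 2 without replicate 3 of old leaves at 100 µM and 37 without replicate 3 of old leaves at 5 µM. In the gene with the largest difference, on chromosome 12, FPKM was 21.4, 13.0 and 15.2 in young leaves at 100 µM and 27.1, 36.9 and 39.8 in young leaves at 5 µM. It was 187, 157 and 204 in old leaves at 100 µM and 103, 58.8 and 97.2 in old leaves at 5 µM. Neither pair of groups overlapped, and the difference was -2.13 (SE 0.34, limma adjusted p = 0.014).

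Genes that rose in both leaf ages could still differ in size: 9 of them rose more in young leaves and 15 rose more in old leaves. Glyma.15G272800.Wm82.a2.v1, with the most negative difference of all, had an FPKM of 8.58, 18.8 and 10.1 in young leaves at 100 µM and 6.58, 7.78 and 5.8 in young leaves at 5 µM. In old leaves it had 76.0, 57.7 and 55.1 at 100 µM and 2.71, 3.59 and 3.63 at 5 µM. Neither pair of groups overlapped, but the gap was narrow in young leaves and wide in old leaves. The change was 0.74 (SE 0.24) in young leaves and 3.88 (SE 0.24) in old leaves, a difference of -3.15 (SE 0.34, limma adjusted p = 0.0052). At 5 µM this gene was higher in young than in old leaves (0.84, adjusted p = 0.015) and at 100 µM lower (-2.31, adjusted p = 2.2e-05).

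The opposite case, on chromosome 9, rose by 3.64 in young leaves and by 1.24 in old leaves. Its FPKM was 13.6, 19.3 and 18.0 in young leaves at 100 µM and 0.417, 0.669 and 0.231 in young leaves at 5 µM. It was 53.3, 72.7 and 51.3 in old leaves at 100 µM and 20.5, 15.2 and 44.3 in old leaves at 5 µM. Old leaves were higher than young leaves at both Mn levels. The difference of 2.40 (SE 0.44, limma adjusted p = 0.02) was 0.90 with a pseudocount of 5 (adjusted p = 0.16) and 4.06 by voom. It did not pass without replicate 3 of young leaves at 100 µM, replicate 1 or 3 of young leaves at 5 µM, or replicate 3 of old leaves at 100 µM.

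Taking changes in place of calls, the share of each difference that came from young leaves was computed. Young leaves supplied at least 75% of the difference for 613 of the 1061 genes on the positive side (57.8%), and old leaves did so for 82. The remaining 366 divided it more evenly. Among the 259 genes on the negative side the order turned: young leaves supplied at least 75% for 52 genes and old leaves for 130 (50.2%). After median-of-ratios rescaling the young part reached 75% for 474 of 955 genes on the positive side. On the negative side it did so for 199 of 597 and the old part for 151, so that the order on that side depended on scaling. Quantile normalization gave 355 and 234 of 946 there.

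Separation between libraries followed the same lines. Among the 1061 genes, all 3 values of young leaves at 100 µM lay above all 3 at 5 µM for 976, while 50.6% of all genes tested did so. In old leaves the 100 µM values lay below the 5 µM values for 324 of the 1061 (9.06% of all genes). Among the 259 genes, old leaves at 100 µM lay above 5 µM without overlap for 198 (20.3% of all genes), and young leaves at 100 µM lay below 5 µM for 125 (10.7%). The counts come from the libraries that made the calls and carry no test. The shares of all genes also rest on FPKM as deposited, before any rescaling.

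The levels in the 4 groups described where each gene stood. A positive difference by its definition favours young leaves at 100 µM or old leaves at 5 µM as the highest group. It favours the other groups as the lowest, and a negative difference does the reverse. These shares use the values that made the calls and carry no test. For genes on the positive side, young leaves at 5 µM were the lowest group in 703 of 1061 (66.3%, against 48.9% of all genes tested) and old leaves at 100 µM in 295 (27.8%, against 18.8%). Young leaves at 100 µM were the highest group in 681 (64.2%, against 36.6%) and old leaves at 5 µM in 319 (30.1%, against 16.5%). The most common order, in 270 genes, was young leaves at 100 µM, then old leaves at 5 µM, then old leaves at 100 µM, then young leaves at 5 µM. For the 259 genes on the negative side, old leaves at 100 µM were the highest group in 175 (67.6%, against 34.5%), and the lowest was young leaves at 100 µM in 100 (38.6%, against 10.8%) or old leaves at 5 µM in 92 (35.5%, against 21.5%).

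The difference between responses is also the young-over-old gap at 100 µM minus the gap at 5 µM. Gaps in opposite directions add up in it, so the leaf age calls of called genes are largely built in and carry no test. Read as leaf age differences, the 1061 genes had a median young-over-old value of 0.67 at 100 µM and -0.82 at 5 µM. At 5 µM, 658 of them were called lower in young leaves (28% of all genes tested), 99 higher (17.5%) and 304 not called. At 100 µM, 549 were called higher in young leaves (22.8%), 55 lower (17.8%) and 457 not called. All 457 were called lower in young leaves at 5 µM. With a positive difference and no gap called at 100 µM, a lower value in young leaves at 5 µM was largely forced. This pattern made up 43.1% of the 1061 and 15.3% of all genes tested. A further 304 were called at 100 µM alone, as higher in young leaves (28.7%, against 8.48%), and 146 were higher in young leaves at 100 µM and lower at 5 µM (13.8%, against 0.531%). The other genes were higher in young leaves at both levels (99, or 9.33%, against 13.8%) or lower at both (55, or 5.18%, against 12.2%). The absolute gap between leaf ages was smaller at 100 µM for 585 of the 1061 (55.1%, against 52.3% of all genes tested).

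For the 259 genes on the negative side the median young-over-old value was -0.78 at 100 µM and 0.23 at 5 µM. At 100 µM, 174 were called lower in young leaves (67.2%, against 17.8% of all genes tested). Of these, 100 were not called at 5 µM (38.6% of the 259, against 5.55%), 58 were also lower there (22.4%, against 12.2%) and 16 were higher there (6.18%, against 0.0566%). Another 55 had no call at 100 µM but were called higher at 5 µM in young leaves (21.2%, against 3.60%), and 30 were higher at both levels (11.6%, against 13.8%). These leaf age calls use the same libraries as the difference and carry no test of their own. Opposite gaps add up in the difference on this side too, so these shares are largely built in. The gap was smaller at 100 µM for 95 of the 259 (36.7%).

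**Figure D5:**
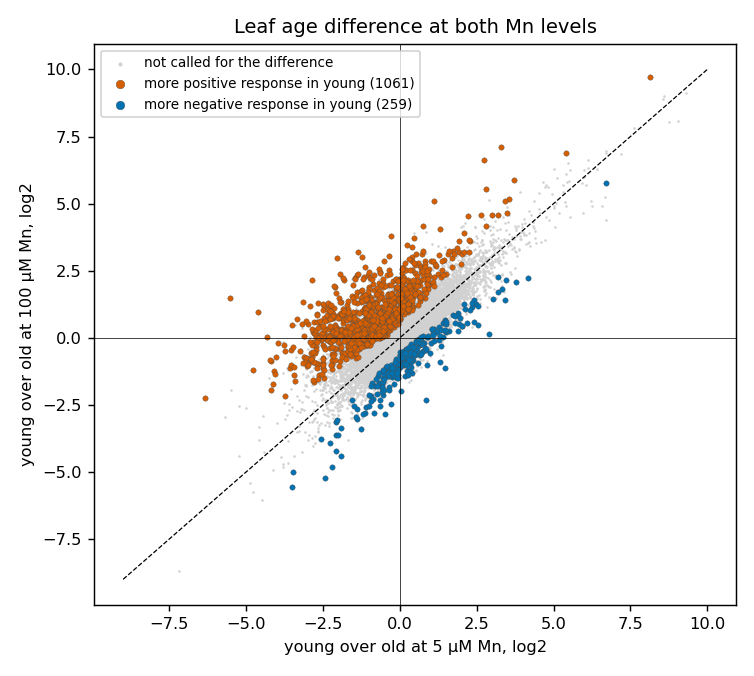
Young-over-old log2 difference at 100 µM Mn (y axis) against the same at 5 µM (x axis) for 28267 genes; orange and blue points are genes with the more positive (1061) and more negative (259) Mn response in young leaves, and the dashed line marks equal gaps. Most orange points start left of 0 at 5 µM, with a median of -0.82, and lie above 0 at 100 µM, with a median of 0.67.

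The share called varied with abundance more on the negative than on the positive side. The share called in either direction was 4.62% of the 5460 genes with a mean FPKM up to 2, 3.90% between 2 and 5, 4.74% between 5 and 20, 5.76% between 20 and 100 and 5.2% above 100. In the same order, the share called more positive was 3.48%, 3.27%, 4.01%, 4.39% and 3.17%, and the share called more negative was 1.14%, 0.629%, 0.734%, 1.37% and 2.03%. Median length was 1791 bases for the 1061 genes, 1776 for the 259 and 1873 for all genes tested. Genes at the edge of the filter differed: 667 genes reached an FPKM of 1 in exactly 3 libraries (median of the highest library 1.71), and 111 of them were called (16.6%). The 677 genes with exactly 2 such libraries (median of the highest library 1.38) were not tested. Of the called genes, 106 passed the filter only through the 3 libraries of 1 group, so that a difference between groups was built into their selection.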

How the data were processed

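RNA sequencing values of 12 soybean leaf libraries were taken from 1 table of FPKM for 39811 genes deposited by the authors. HISAT2 2.1.0, Bowtie2 2.2.3 and DESeq2 1.6.3 are listed without a role, per the submitters' processing notes. The sources used here do not say how fragments shared by near-identical gene copies were counted, so values of such genes are uncertain. Gene IDs end in Wm82.a2.v1, and 0 of 59048 RefSeq genes (Glycine_max_v4.0) matched them, so the planned gene and marker lists could not be used and at most 2 IDs are printed in each direction.

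Library totals, gene lengths and fragment numbers were solved from ratios between FPKM values. All 39811 genes came out within 0.02 of whole numbers, with 17774122 to 21070730 fragments per library, so 1 fragment per kb equals 0.0475 to 0.0563 FPKM. Replicates differed by more than sampling noise, with a chi-square per gene of 38.3 to 81.4 between old-leaf libraries at 5 µM (the 2 pairs with replicate 3 highest) and 8.86 to 24.0 within the other groups.

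Values were analysed as log2(FPKM + 1), which understates changes of genes with low FPKM. Limma 3.58.1 (R 4.3.3) estimated the mean of each of the 4 groups, with variances following the expression trend. Tests were 2-sided, with Benjamini-Hochberg adjustment over 28267 genes and calls below 0.05. Genes named by ID have the 2 most positive and 2 most negative differences among calls that averaged 5 FPKM or more in some group. Where a response type had none of these in a direction, its gene with the largest difference under the same FPKM rule was described. Such a gene is given by the chromosome in its ID. This rule was added after the values were seen. No example was given for genes lower in both ages or called in neither. Alternatives were other pseudocounts, filters, scalings and variance models, a replicate term, a 2-fold floor, each library left out and voom on recovered fragments. The comparison, lists and types were chosen with earlier results of these data known.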

Additional observations from a re-analysis of the deposited data

Results flagged for a closer look

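Each gene described for the difference between leaf ages stands here because the test of that difference itself passed. Among named genes the log2 difference (young minus old response) was 7.03 for Glyma.02G083700.Wm82.a2.v1, 5.56 for Glyma.07G243500.Wm82.a2.v1, -3.15 for Glyma.15G272800.Wm82.a2.v1 and -2.78 for Glyma.03G036500.Wm82.a2.v1. The example genes had differences of 4.07 (chromosome 13, lowered in old leaves with no call in young ones), -2.75 (chromosome 16, lowered in young leaves with no call in old ones), -2.13 (chromosome 12, lower in young and higher in old leaves) and 2.40 (chromosome 9, higher in both). They are the largest of their response type and direction among called genes that averaged 5 FPKM or more in some group. Their sizes are therefore not typical of the 1320 genes. Outlying libraries were not tested gene by gene within groups of 3.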

How the results depend on the processing

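The 1320 calls (1061 positive and 259 negative) stayed within a factor of 1.5 with pseudocounts of 0.1 and 5, no filter, median-of-ratios scaling, sample weights by group, no variance trend and a difference of at least 1. Quantile normalization gave 2037, a mean FPKM of at least 5 gave 792 (637 and 155) and voom, an alternative chosen after seeing the data, gave 823 (690 and 133). More negative calls alone moved to 597 with median-of-ratios scaling, 946 with quantile normalization and 150 with a difference of at least 1. With a pseudocount of 0.1 they numbered 177, within the factor of 1.5. Single types moved further with sample weights by group, in which old-leaf libraries at 5 µM weighed 0.392 and the others 1.3 to 1.42. Genes lowered in old leaves with no call in young ones went from 125 to 79. Genes higher in young and lower in old leaves went from 70 to 39. With each library left out, totals ran from 194 to 3232, more positive calls from 160 to 2791 and more negative calls from 34 to 636. Of the 1320 genes, 1107 were also called after median-of-ratios rescaling (83.9% of the 1320 and 71.3% of the calls under that scaling) and 793 by voom (60.1% and 96.4%). The plants were grown in randomized blocks, and no label ties replicate numbers to blocks. By their values the numbers showed no clear pairing of the libraries: 5 of 18 correlations between libraries of the same number exceeded 0.1 (range -0.47 to 0.26), and 3 of 12 libraries correlated best with their own number. With 3 libraries per group this check could not exclude a pairing. The replicate block gave 766 calls (628 and 138). The causes of these changes were not tested. At these depths genes near an FPKM of 0.15 or less rest on a few fragments, and a fall from such a level could not be detected.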

Other observations

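Called genes were spread over the genome, with chromosomes read from the gene IDs. The share of tested genes whose response was more positive in young leaves ran from 2.88% on chromosome 5 to 4.59% on chromosome 18, and the share in which it was more negative from 0.522% on chromosome 4 to 1.37% on chromosome 14. Neighbours in the ID order, which follows the chromosome, were also compared over 15413 pairs of tested genes whose IDs differ by 1 step. Where the response of the first gene of a pair was more positive, that of the second was in 8.24% (49 of 595 pairs), against 3.73% over all pairs. For the more negative response it was 0.719% (1 of 139 pairs), against 0.895%. The longest uninterrupted runs of tested genes on the positive side held 4 genes, 1 run on chromosome 7 and 1 on chromosome 12. Neighbouring genes in soybean include tandem copies, whose fragments could not be told apart here, and no test was made.

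The 164 genes called whichever library was left out had another mix of types. Of these, 91 were raised in young leaves with no call in old ones, 27 were higher in young and lower in old leaves, and 20 were lowered in old leaves with no call in young ones. A further 10 were raised in old leaves with no call in young ones, 7 were lowered in young leaves with no call in old ones, 6 were higher in both ages and 3 were lower in young and higher in old leaves. Genes called in opposite directions thus made up 30 of the 164 (18.3%) and 85 of the 1320 (6.44%). The 164 were picked by the same test, in which opposite changes add up, so a larger share is partly built in.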
